A study of Mus musculus with 6 samples.

Results

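The ATF4 branch of the stress response was followed through 10 genes chosen by name, out of 36047 genes with a summed value: the transcription factors Atf4, Atf5, Atf3, Ddit3 and Cebpb, the feedback genes Trib3 and Ppp1r15a, and the effectors Chac1, Sesn2 and Ddit4. All 10 were found in the annotation and all 10 passed the filter on low counts. PolyA RNA was sequenced from the MLE-12 line of mouse lung epithelium, which came from a tumour of a mouse that carried viral large T antigen under a surfactant protein C promoter. That antigen binds p53, and both groups carry it; the labels give the genotype as WT. The PBS group (3 libraries) received PBS, and the CSE group (3 libraries) received cigarette smoke extract, a solution of smoke constituents, at 5% and an optical density of 2. The agent was given at a cell density of 30%, and cells of both groups were collected 24 h later. The labels do not state whether replicates were separate cultures, and the p-values reflect only how the libraries differed, which may be technical.

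Cells phosphorylate the translation factor eIF2 when amino acids, haem, mitochondria or protein folding fail, or when double-stranded RNA appears. Most translation then falls, while the Atf4 and Atf5 mRNAs, which hold short upstream reading frames, are translated more. ATF4 protein pairs with C/EBP and other basic leucine zipper proteins and switches on genes for amino acid supply, redox control and, through Ddit3 (CHOP), cell death. Much of this control acts on translation and protein, which RNA-seq does not see.

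The libraries held between 12093009 and 24050167 estimated counts. Of 16 lung epithelial markers, 1 (Sftpa1) was listed at 0 in all 6 libraries and 4 had a mean under 1 TPM (kallisto's abundance unit, corrected for transcript length and depth). Their summed level was 2058 to 2131 TPM with PBS and 1138 to 1287 TPM with CSE. Krt19 was the largest part of it, with a mean of 1005 TPM with PBS and 493 TPM with CSE. In the edgeR test described below 8 of the 12 that could be tested fell, beside 7.12% called lower over all tested genes. Nkx2-1 and Abca3 were among the 4 not called. Of 19 markers of other lung cells, 15 had a mean under 1 TPM, and Marco, Adgre1, Cdh5 and Hbb-bs were listed at 0 throughout. Their sum was 23.5 to 25.3 TPM with PBS and 17.1 to 21.1 TPM with CSE. Of the 5 that could be tested, 1 fell, 1 rose and 3 were not called, beside 7.12% called lower and 4.32% called higher over all tested genes. Col1a1 fell from a mean of 14.7 to 9.05 TPM, and Pdgfra rose from 2.67 to 4.49 TPM. The part of these marker shifts in the results below was not tested, and in bulk RNA fewer cells of a type and less RNA per cell cannot be told apart.

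The promoters of the 4 members that changed are shown first, because members of this pathway are classically reached through a composite C/EBP-ATF element. The windows run from 250 bases before the RefSeq start to 30 bases after it on GRCm38.p6, 5′ to 3′ on the gene's strand. They lie at chr2:152344031-152344310 (minus strand) for Trib3, chr2:119350992-119351271 (plus strand) for Chac1, chr4:132510427-132510706 (minus strand) for Sesn2 and chr1:191183304-191183583 (minus strand) for Atf3. Capitals mark the 8 bases that match TGATGNAA, the core of that element, on either strand.
Trib3: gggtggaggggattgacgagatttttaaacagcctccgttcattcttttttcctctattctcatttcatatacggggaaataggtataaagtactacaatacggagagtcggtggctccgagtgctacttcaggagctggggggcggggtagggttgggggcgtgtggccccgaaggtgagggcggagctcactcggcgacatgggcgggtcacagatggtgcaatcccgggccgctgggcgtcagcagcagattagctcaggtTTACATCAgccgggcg
Chac1: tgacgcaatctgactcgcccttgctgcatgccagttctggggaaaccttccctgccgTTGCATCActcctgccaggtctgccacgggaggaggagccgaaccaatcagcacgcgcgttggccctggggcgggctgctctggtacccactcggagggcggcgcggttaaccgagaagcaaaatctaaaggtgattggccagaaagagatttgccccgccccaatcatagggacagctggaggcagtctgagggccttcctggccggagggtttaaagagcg
Sesn2: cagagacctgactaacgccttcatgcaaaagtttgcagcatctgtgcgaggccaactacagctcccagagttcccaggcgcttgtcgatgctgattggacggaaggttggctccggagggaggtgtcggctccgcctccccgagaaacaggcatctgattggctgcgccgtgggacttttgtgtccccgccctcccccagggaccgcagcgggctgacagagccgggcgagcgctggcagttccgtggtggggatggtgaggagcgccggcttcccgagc
Atf3: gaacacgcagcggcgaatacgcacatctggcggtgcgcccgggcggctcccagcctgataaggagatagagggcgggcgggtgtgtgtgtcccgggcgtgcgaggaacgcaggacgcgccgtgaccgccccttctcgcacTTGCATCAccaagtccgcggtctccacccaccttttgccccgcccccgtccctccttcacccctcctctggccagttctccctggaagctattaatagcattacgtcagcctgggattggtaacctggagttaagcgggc
The match is TTACATCA in Trib3, and TTGCATCA in Chac1 and in Atf3, each the reverse complement of the searched letters. It begins 193 bases before the start in Chac1 and 110 bases before it in Atf3. In Trib3 it begins 14 bases after the RefSeq start, and the GENCODE start lies 28 bases after the RefSeq start, downstream of the match. The Atf3 window is that of the start used by Atf3-201, inside the gene, and not of the far upstream start of Atf3-203. The Sesn2 window holds no match to these letters. In all, 3 of the 11 windows of the 10 members (Atf5 has more than 1) held the core, against 3.81% of 32851 RefSeq windows of the same length. The cyclic AMP response element TGACGTCA was found in 1 member window, that of Ppp1r15a, and in 1.74% of all windows. The antioxidant element TGACNNNGC was found in the windows of Sesn2, Cebpb and Ppp1r15a and in 11.5% of all windows. The letters NACGTG, searched for the hypoxia element core, were found in the windows of Ppp1r15a, Ddit4 and Ddit3 and in 18.4% of all windows. Forms of that core with a base other than A before CGTG were not searched. The endoplasmic reticulum stress element, searched in its exact form alone, was found in 0 member windows and in 0.116% of all windows. Forms that differ from it by a base were not searched, so the windows, that of Ddit3 included, may hold such a form. Both strands were searched for each motif, and no matches in the member windows overlapped. A match describes the letters and shows no binding.

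With CSE, 3 members rose slightly, 1 fell and 6 did not pass the test. Trib3, Chac1 and Sesn2 rose by factors of 1.38, 1.29 and 1.19, and Atf3 fell to 0.674 of its PBS level. A gene was called changed at an adjusted p below 0.05 in edgeR's quasi-likelihood test, and over 13451 tested genes 4.32% were called higher and 7.12% lower, 11.4% in either direction. The members' median log2 change was 0.18, beside 0.01 over all tested genes. Of the 10 changes 8 were positive, beside 6853 of 13451 over all tested genes. Among those 8, Atf4, Ddit3 and Ddit4 were not called, and each turned negative in a fit with 1 library left out. The TPM ranges of the groups did not overlap for 4 members, the same 4 that were called, which compares with 27.2% of all tested genes. Every member's change in edgeR was below 1.5-fold in size. None was therefore called in a test against a 1.5-fold change, an outcome that these sizes fixed in advance. In mean TPM Atf3 fell to 0.645 of its PBS level, beyond 1.5-fold. With limma on log2(TPM + 1) none of the 3 rises was called (adjusted p = 0.0984 for Trib3, 0.127 for Chac1 and 0.334 for Sesn2), while Atf3 kept its call (0.0446). With an offset for effective length the adjusted p was 0.0793 for Chac1 and 0.0831 for Sesn2, and Sesn2 was also above the threshold with DESeq2 (0.0585), library-size scaling (0.0555) and no filter on low counts (0.0672). Removing the GC and length trend raised its log2 change from 0.25 to 0.45. Atf3 was just above the threshold with limma-voom (0.0506) and well below it with DESeq2 (0.00578).

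**Figure D1:**
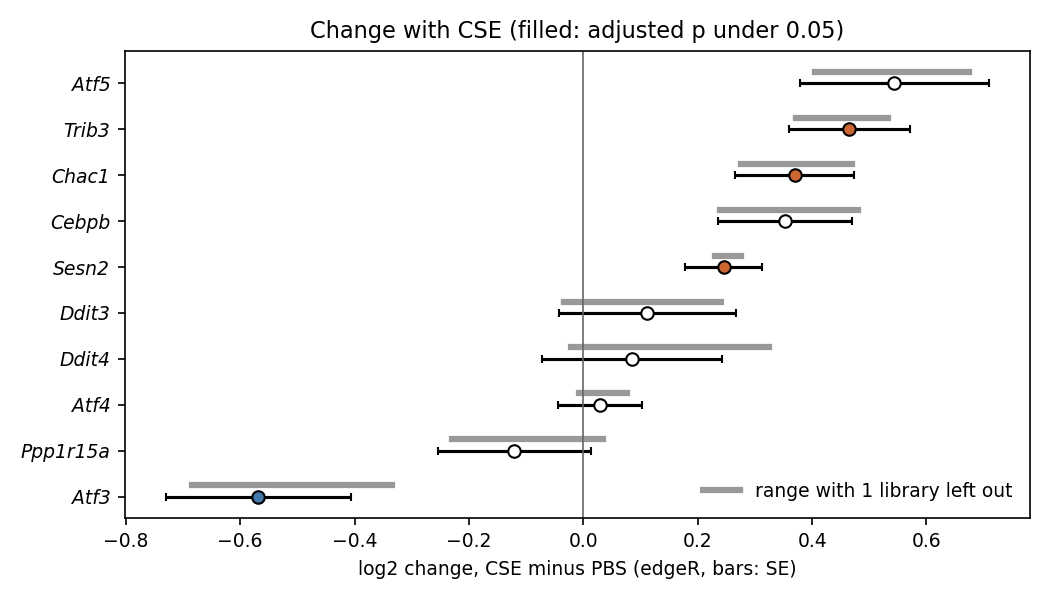
The log2 change (CSE minus PBS) of each member is plotted with its standard error, with filled points for adjusted p below 0.05 and a grey line for the range with 1 library left out. Trib3, Chac1 and Sesn2 lie to the right of 0 and Atf3 to the left; Atf5 has the largest positive value, 0.54, without passing the test.

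Levels per length differed widely among the members. In PBS cells Atf4 was the most abundant, followed by Cebpb, Atf3 and Ppp1r15a, and Atf5 was the least. The libraries of Chac1, Sesn2, Ddit3, Ddit4 and Trib3 overlapped with those of their neighbours in the order, and so did Ppp1r15a with Chac1, while Atf4, Cebpb, Atf3 and Atf5 stood apart from theirs. In CSE cells Atf3 overlapped with Chac1, and Trib3 with Ddit4, while Atf4, Cebpb and Atf5 stood apart again. The members' median within-group SD of log2 CPM (depth-scaled counts) was 0.206, beside 0.108 over the 9888 tested genes that averaged 5 TPM or more, and ran from 0.0356 for Sesn2 to 0.286 for Atf3.

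**Figure D2:**
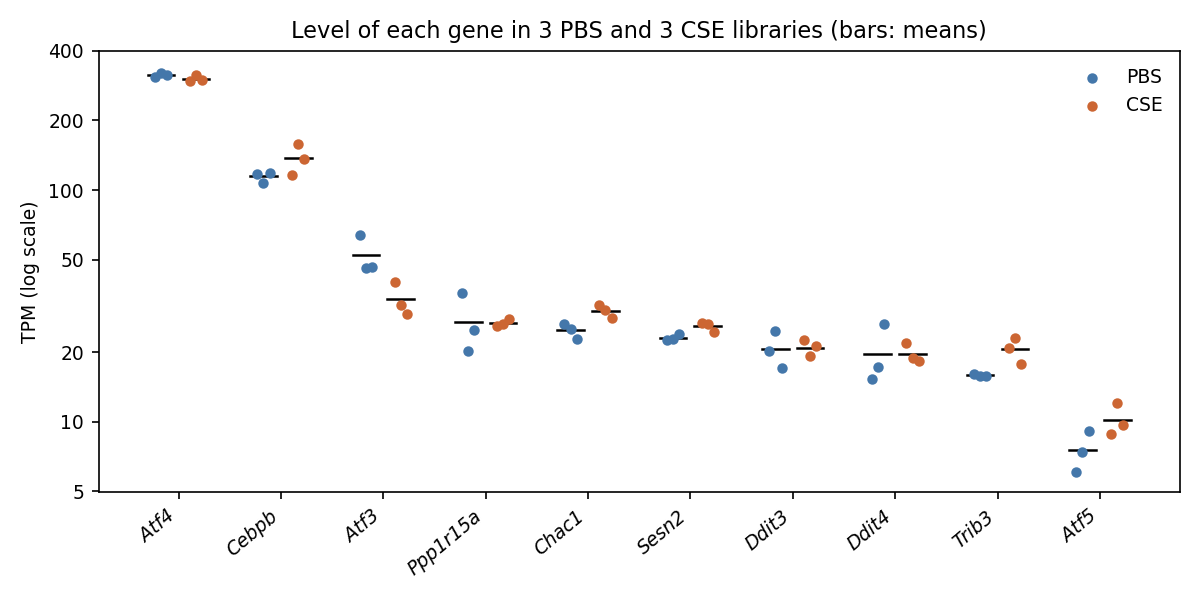
TPM on a log axis is plotted for each member, with 1 point per library and a bar at each group mean. Atf4 lies between 295 and 322 TPM and Atf5 between 6.05 and 12.1 TPM, and the colours separate for Atf3, Trib3, Chac1 and Sesn2.

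Among the transcription factors, Atf4 (chr15:80255184-80257541, plus strand) is the factor the branch is named for. Its level was 309.5, 322 and 315 TPM in PBS libraries 1 to 3 and 295, 315 and 298 TPM in CSE libraries 1 to 3, and the groups overlapped. This gave a log2 change of 0.03 ± 0.07 (SE; 95% interval -0.13 to 0.19; edgeR quasi-likelihood test, adjusted p = 0.848), an interval that holds no change above 0.19. Atf5 (chr7:44812256-44816658, minus strand), a relative of ATF4 under the same translational control, had 6.05, 7.43 and 9.16 TPM in PBS libraries 1 to 3 and 8.86, 12.1 and 9.64 TPM in CSE libraries 1 to 3. PBS library 3 lay above CSE library 1 in TPM, though in normalised CPM the groups did not overlap. The test gave a log2 change of 0.54 ± 0.16 (SE; 95% interval 0.18 to 0.91; edgeR quasi-likelihood test, adjusted p = 0.0592), and the call appeared without CSE library 1 (adjusted p = 0.0347). Exons of Atf5 overlap 82 bases of genes on the other strand, Il4i1 and Nup62, and the strand setting of the counting is not given in the sources used here.

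Ddit3 (chr10:127290774-127296288, plus strand) encodes CHOP, a C/EBP family factor of the late, death-linked arm. It had 20.1, 24.8 and 17.1 TPM in PBS libraries 1 to 3 and 22.4, 19.2 and 21.2 TPM in CSE libraries 1 to 3, with all 3 CSE values inside the range of the PBS values. The result was a log2 change of 0.11 ± 0.15 (SE; 95% interval -0.23 to 0.45; edgeR quasi-likelihood test, adjusted p = 0.695). The retained-intron transcript Ddit3-202, which is 969 bases long, took 23.7, 26.2 and 27.0% of the gene's TPM with PBS (libraries 1 to 3) and 21.7, 18.7 and 16.3% with CSE. Every CSE share lay below every PBS share, with means of 25.6 ± 1.70% and 18.9 ± 2.71% (SD, n = 3 each). An exact test of 3 against 3 libraries could not go below p = 0.1, so this is given as a description. The coding transcript Ddit3-201 had 14.7, 18.3 and 12.5 TPM with PBS and 17.6, 15.6 and 17.7 TPM with CSE, ranges that overlap. Ddit3 exons share 81 bases with genes on the other strand, Mars and Gm4189.

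**Figure D3:**
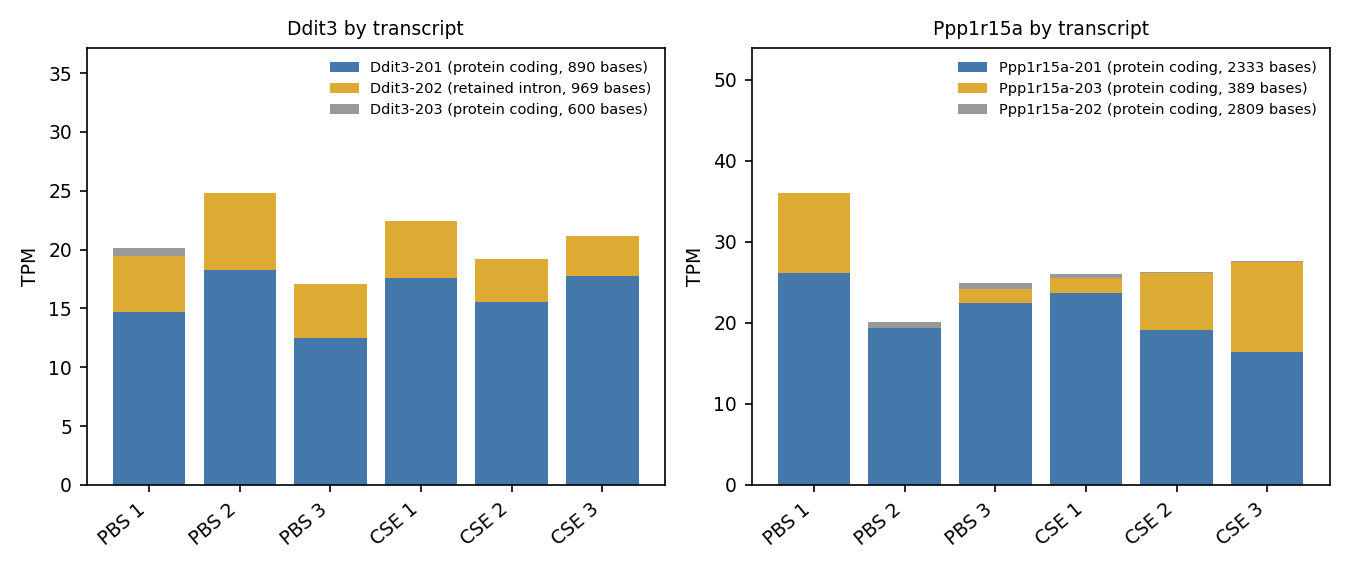
TPM per transcript is stacked for each of the 6 libraries, for Ddit3 and Ppp1r15a. The retained-intron Ddit3-202 takes a smaller share in each CSE library than in any PBS library, and the split of Ppp1r15a varies among libraries of 1 group.

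Atf3 (chr1:191170296-191218039, minus strand) is a repressor-type leucine zipper protein that ATF4 and also growth and stress kinases induce rapidly. It had 64.2, 46.2 and 46.5 TPM in PBS libraries 1 to 3 and 40.2, 31.9 and 29.1 TPM in CSE libraries 1 to 3. The CSE values lay below all PBS values, with PBS library 1 far above the other PBS libraries. CSE library 1 was likewise the highest of its group. Its means were 52.3 ± 10.3 TPM with PBS and 33.7 ± 5.76 TPM with CSE (SD, n = 3 each), with a log2 change of -0.57 ± 0.16 (SE; 95% interval -0.93 to -0.21; edgeR quasi-likelihood test, adjusted p = 0.0460). The call was lost without PBS library 1, at a log2 change of -0.33 and an adjusted p of 0.0695, without CSE library 2 (0.167) and without CSE library 3 (0.170). The share of Atf3-201 among its transcripts ran from 37.1% to 99.4% over the libraries, with no separation of the groups.

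Cebpb (chr2:167688915-167690418, plus strand), a dimer partner of ATF4, had 117, 108 and 119 TPM in PBS libraries 1 to 3 and 117, 158 and 136 TPM in CSE libraries 1 to 3. CSE library 1 lay among the PBS values, and the other CSE libraries above them. The result was a log2 change of 0.35 ± 0.12 (SE; 95% interval 0.09 to 0.61; edgeR quasi-likelihood test, adjusted p = 0.0831). The adjusted p was 0.0137 without CSE library 1 and 0.0340 with DESeq2. Cebpb exons overlap 312 bases of Tmem189 on the other strand, and 0.407% of the 31-base words of its most abundant transcript occur in the sense sequence of a transcript of another gene, against 0% for the other 9 members. Words on the opposite strand were not counted.

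Of the feedback genes, Trib3 (chr2:152337422-152344032, minus strand) encodes a pseudokinase that binds ATF4 and restrains it. It had 16.1, 15.7 and 15.7 TPM in PBS libraries 1 to 3 and 20.9, 23.0 and 17.9 TPM in CSE libraries 1 to 3. The PBS libraries lay close together, and every CSE library was above them. Its means were 15.8 ± 0.216 TPM with PBS and 20.6 ± 2.61 TPM with CSE (SD, n = 3 each), with a log2 change of 0.46 ± 0.11 (SE; 95% interval 0.23 to 0.70; edgeR quasi-likelihood test, adjusted p = 0.0168). The adjusted p was 0.0782 without PBS library 3 and 0.102 without CSE library 2. Ppp1r15a (chr7:45522916-45526268, minus strand) encodes GADD34, which brings a phosphatase to eIF2 and so ends the response. It had 36.0, 20.1 and 24.9 TPM in PBS libraries 1 to 3 and 26.01, 26.3 and 27.6 TPM in CSE libraries 1 to 3, and the CSE values lay inside the PBS range. The test gave a log2 change of -0.12 ± 0.13 (SE; 95% interval -0.42 to 0.17; edgeR quasi-likelihood test, adjusted p = 0.615). A short 389-base transcript model, Ppp1r15a-203, took 27.3, 0 and 6.56% of its TPM with PBS (libraries 1 to 3) and 7.09, 26.8 and 40.1% with CSE, and its TPM and its normalised counts order the libraries differently.

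Of the effectors, Chac1 (chr2:119351229-119354381, plus strand) encodes an enzyme that breaks down glutathione. It had 26.5, 25.1 and 22.7 TPM in PBS libraries 1 to 3 and 31.9, 30.5 and 28.2 TPM in CSE libraries 1 to 3, and all CSE values were above all PBS values. Its means were 24.8 ± 1.93 TPM with PBS and 30.2 ± 1.87 TPM with CSE (SD, n = 3 each), with a log2 change of 0.37 ± 0.10 (SE; 95% interval 0.14 to 0.60; edgeR quasi-likelihood test, adjusted p = 0.0429). The adjusted p was 0.0738 without PBS library 2, 0.151 without PBS library 3, and 0.111, 0.145 and 0.116 without CSE library 1, 2 and 3. Sesn2 (chr4:132492032-132510501, minus strand) encodes a leucine sensor that holds back mTORC1, the growth kinase complex. It had 22.6, 22.7 and 23.9 TPM in PBS libraries 1 to 3 and 26.6, 26.5 and 24.4 TPM in CSE libraries 1 to 3. CSE library 3 was only just above PBS library 3, and no values overlapped. Its means were 23.1 ± 0.699 TPM with PBS and 25.8 ± 1.23 TPM with CSE (SD, n = 3 each), with a log2 change of 0.25 ± 0.07 (SE; 95% interval 0.10 to 0.40; edgeR quasi-likelihood test, adjusted p = 0.0408), and leaving out any library but PBS library 1 gave an adjusted p between 0.0768 and 0.175. Ddit4 (chr10:59949669-59951834, minus strand) encodes REDD1, another brake on mTORC1. It had 15.2, 17.2 and 26.5 TPM in PBS libraries 1 to 3 and 21.9, 18.9 and 18.4 TPM in CSE libraries 1 to 3, with the CSE values inside the PBS range, and gave a log2 change of 0.08 ± 0.16 (SE; 95% interval -0.26 to 0.43; edgeR quasi-likelihood test, adjusted p = 0.782).

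**Figure D4:**
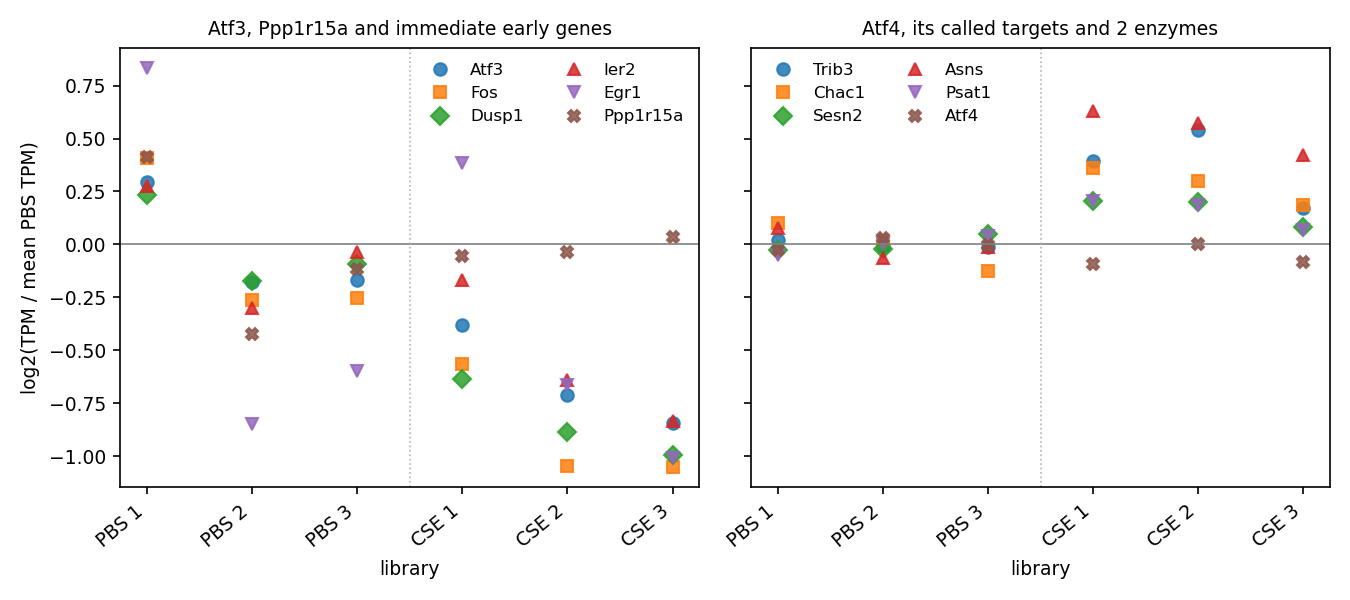
The log2 ratio of each library's TPM to the mean PBS TPM is drawn as 1 point per gene and library, with Atf3, Ppp1r15a, Fos, Dusp1, Ier2 and Egr1 on the left and Atf4, Trib3, Chac1, Sesn2, Asns and Psat1 on the right. On the left PBS library 1 is the highest PBS library for each of these 6 genes, which were picked with their values known. On the right the CSE points lie above all PBS points except for Atf4. That panel holds the members called higher, Asns, which was chosen after its values were seen, and Psat1, the gene closest to Sesn2. The separation there reflects this choice.

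The genes closest to each called member were found by the root-mean-square distance between centred log2 CPM profiles over the 6 libraries, among 9887 other genes, given in log2 units in parentheses. For Atf3 they were Ccn1 (0.0948), Ier2 (0.104) and Dusp1 (0.124). For Trib3 they were Smco4 (0.0382), Ppdpf (0.0496) and Npepl1 (0.0578). Those of Chac1 were Pdhb (0.0503), Naa10 (0.0505) and Trap1 (0.0519), and those of Sesn2 were Psat1 (0.0144), Thap4 (0.0164) and Myd88 (0.0264). Ier2 and Dusp1 belong to the immediate early genes, which growth signals and handling induce within minutes, and Psat1 is a serine synthesis enzyme and a known ATF4 target. Psat1 was the only gene on the ATF4 target lists used here among those closest to the members that rose. Dusp1, Npepl1, Naa10, Trap1 and Psat1 were themselves called changed, and the other close genes were not. A shared cause of like profiles was not tested.

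Of 15 immediate early genes tested, 4 fell (Klf4, Dusp1, Klf6 and Fos), 1 rose (Klf2) and 10 were not called, with a median log2 change of -0.27. This list and those below were chosen with earlier results of these data known. Their counts compare with 4.32% called higher and 7.12% called lower over all tested genes. Fos had 27.7, 17.4 and 17.5 TPM in PBS libraries 1 to 3 and 14.1, 10.1 and 10.1 TPM in CSE libraries 1 to 3, and Dusp1, a MAP kinase phosphatase, had 59.4, 44.9 and 47.4 TPM in PBS libraries 1 to 3 and 32.6, 27.3 and 25.3 TPM in CSE libraries 1 to 3. For both genes library 1 was the highest in each group, and the groups did not overlap. Egr1 had 63.9, 19.9 and 23.7 TPM in PBS libraries 1 to 3 and 46.8, 22.6 and 17.8 TPM in CSE libraries 1 to 3, highest in library 1 of each group. Of the 15 genes, 12 had their highest PBS value in PBS library 1. The other 3, Klf4, Klf6 and Klf2, had it in PBS library 3. Klf4, a zinc finger factor and the gene of smallest p in the list, had 374, 328 and 389 TPM in PBS libraries 1 to 3 and 194, 194 and 187 TPM in CSE libraries 1 to 3, and its log2 change was -0.84 ± 0.08 (edgeR adjusted p = 8.17e-05). The number that fell was 2 without CSE library 2 or CSE library 3, and the number that rose was 3 without PBS library 1 and 0 among genes with a mean of at least 5 CPM. The part of these genes in the Atf3 result was not tested.

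Upstream of ATF4, 21 eIF2 kinases, eIF2 subunits and regulators were tested, of which 2 rose, 1 fell and 18 were not called (median log2 change 0.09). Oma1, a mitochondrial protease that relays mitochondrial stress to eIF2 kinase HRI, rose by 0.88 ± 0.15 on the log2 scale (adjusted p = 0.00342, edgeR). Impact, an inhibitor of the amino acid sensor GCN2, rose by 0.49 ± 0.09 (adjusted p = 0.00587, edgeR). With limma the number that rose was 0 on log2(TPM + 1) and 1 on log2(TPM + 0.1). Eif2ak3, the kinase PERK of the endoplasmic reticulum, had 14.3, 16.1 and 18.3 TPM in PBS libraries 1 to 3 and 10.002, 12.2 and 9.48 TPM in CSE libraries 1 to 3. Its log2 change was -0.37 ± 0.10 (edgeR adjusted p = 0.0370), a call lost without PBS library 1 or 3 or CSE library 1 or 3, and with the GC and length trend removed. This fall in counts was smaller than that in mean TPM, from 16.2 with PBS to 10.6 with CSE. Of 16 tested genes of the IRE1 and ATF6 branches, the other arms of the folding response, edgeR called 0, with 2 (Calr and Ern1) at an unadjusted p under 0.05. 1 was called lower with DESeq2, library-size scaling, a floor of 5 CPM on the mean, no filter at all, the length offset and limma on either TPM scale, and without PBS library 2, so the count of 0 depends on the setting. It was 0 with limma-voom.

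Known ATF4 targets of amino acid supply were counted next, in lists chosen with earlier results of these data known. Over all tested genes 4.32% were called higher and 7.12% lower. Among 10 tested transporters 5 rose, 0 fell and 5 were not called (median 0.25). Slc7a11, the cystine importer and also a target of the oxidant sensor NRF2, had 5.18, 4.65 and 5.91 TPM in PBS libraries 1 to 3 and 17.1, 14.9 and 14.6 TPM in CSE libraries 1 to 3 and a log2 change of 1.72 ± 0.09 (edgeR adjusted p = 1.77e-06). Slc6a9, a glycine transporter, rose by 1.02 ± 0.08 (edgeR adjusted p = 1.86e-05). Among 15 amino acid and one-carbon enzymes 8 rose, 0 fell and 7 were not called (median 0.28). Pck2, mitochondrial phosphoenolpyruvate carboxykinase, rose by 0.84 ± 0.07 (edgeR adjusted p = 3.06e-05), and Aldh1l2, a mitochondrial folate enzyme, by 0.96 ± 0.09 (edgeR adjusted p = 5.53e-05). Aldh1l2 rose less in mean TPM, from 13.2 with PBS to 20.7 with CSE, than in counts, from 1816 to 3609 over the libraries of each group. Asns, asparagine synthetase, had 293, 265 and 275 TPM in PBS libraries 1 to 3 and 429.8, 413 and 372 TPM in CSE libraries 1 to 3, with every CSE library above every PBS library. Among 12 cytosolic aminoacyl-tRNA synthetases 3 rose (Lars, Nars and Yars), 0 fell and 9 were not called (median 0.20), and 1 was called without PBS library 3 or any 1 CSE library. With limma on TPM the numbers that rose were 3 transporters, 6 enzymes and 0 synthetases. No transporter, enzyme or synthetase was called lower under any of the 18 alternatives.

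**Figure D5:**
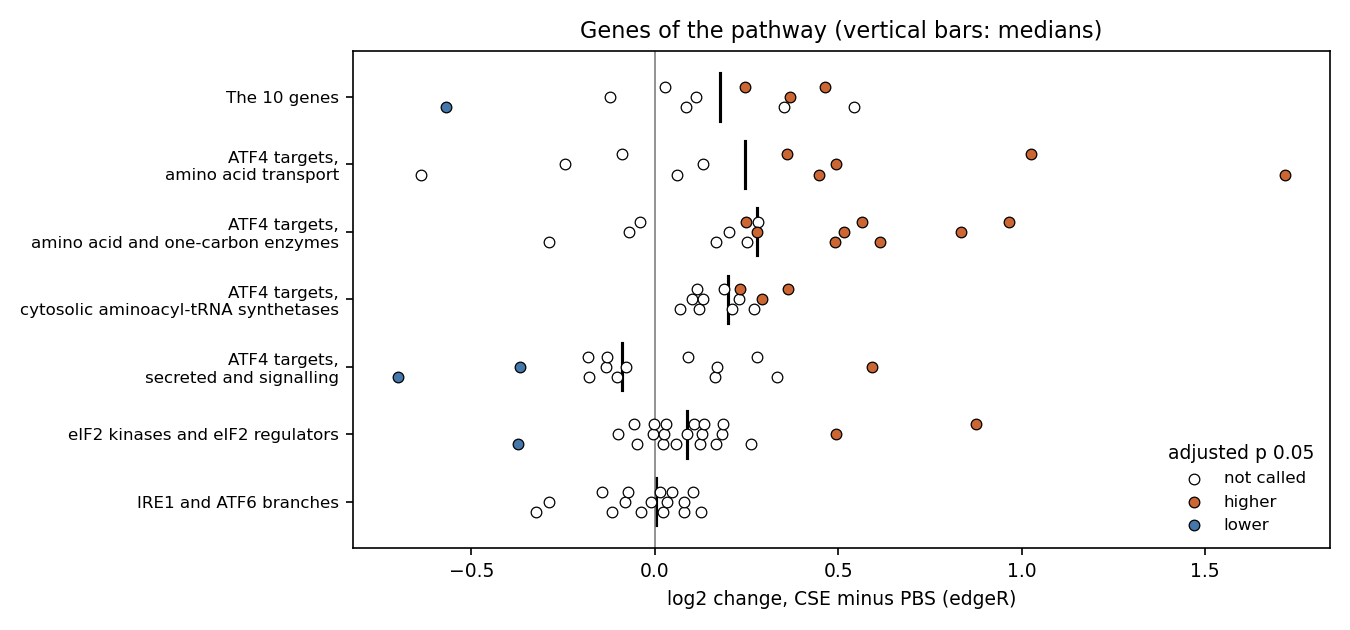
Each point is the log2 change (CSE minus PBS) of 1 gene of a pathway group, filled where adjusted p is below 0.05, with a vertical bar at the group's median. Transporters, enzymes and tRNA synthetases lie mostly to the right of 0, with medians of 0.25, 0.28 and 0.20, and the IRE1 and ATF6 group is centred at 0.00.

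Other ATF4 targets, secreted and signalling proteins, gave 1 rise, 2 falls and 11 without a call among 14 tested (median -0.09). Eif4ebp1, an inhibitor of cap-dependent translation, rose by 0.59 ± 0.09 (edgeR adjusted p = 0.00134), and Ndrg1 and Map1lc3b fell, where 1 gene of the list was called lower with the length offset. Among 8 tested targets of CHOP, 1 rose, 1 fell and 6 were not called. Ero1l, an oxidase for disulfide bonds, rose by 0.45 ± 0.07 (edgeR adjusted p = 0.00195), and Dusp1 had a log2 change of -0.77 ± 0.13 (edgeR adjusted p = 0.00376). Ero1l was not called with limma on TPM.

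Partners with which ATF4, ATF3 and C/EBP proteins pair gave 1 rise, 4 falls and 16 without a call among 21 tested (median -0.04). Cebpd rose by 0.45 ± 0.08 (edgeR adjusted p = 0.00489), and Jund, Mafk, Fos and Fosl2 fell, Jund by a log2 change of -0.52 ± 0.08 (edgeR adjusted p = 0.00215). The number that fell was 2 without PBS library 3, CSE library 1 or CSE library 2, 2 with the GC and length trend removed, and 1 without CSE library 3. Of 12 tested relatives of the members, 2 rose, Cebpd and Sesn1, and 0 fell in edgeR, while 1 fell without PBS library 2 and with DESeq2, library-size scaling, no filter on low counts or a minimum mean of 5 CPM; 5 had an unadjusted p under 0.05. Sesn1, the sestrin best known as a p53 target, had 19.0, 19.2 and 22.4 TPM in PBS libraries 1 to 3 and 24.5, 24.6 and 25.3 TPM in CSE libraries 1 to 3, and its log2 change was 0.38 ± 0.08 (edgeR adjusted p = 0.0109). The number that rose was 1 without CSE library 3 and 1 with limma on TPM.

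Programmes that share members with the ATF4 branch were read beside them. Among 22 tested genes of mTORC1 control, which Sesn2 and Ddit4 serve, 0 rose (1 did without PBS library 2, with no filter on low counts and with the GC and length trend removed), 1 fell and 21 were not called, and 6 had an unadjusted p under 0.05. The gene that fell was Castor2, a relative of the arginine sensor of that complex (-0.51 ± 0.07, edgeR adjusted p = 0.00100). Among 12 tested hypoxia and glucocorticoid targets, programmes that also induce Ddit4, 2 rose (Sgk1 and Slc2a1) and 2 fell (Ndrg1 and Fkbp5). The falls came to 1 without PBS library 3, CSE library 2 or CSE library 3 and with the GC and length trend removed, and the rises to 1 with limma on TPM. Among 13 tested p53 targets, a programme that also induces Sesn2, 5 rose and 0 fell, with Plk2 at 1.02 ± 0.09 (edgeR adjusted p = 3.26e-05), and the number was 3 without CSE library 3 and 3 with limma on TPM. For scale, 7 of 12 NRF2 targets and 5 of 6 tested targets of the smoke-responsive aryl hydrocarbon receptor rose, with medians of 0.55 and 2.18. These lists share Nqo1, which rose, and the NRF2 list shares Slc7a11 with the ATF4 transporters.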

How the data were processed

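Each deposited file gives, per the file headers, an estimated count and a TPM value per transcript, with the column names of kallisto. Per the submitters' processing notes, the tools were FastQC 0.12.1, fastp 0.20.1, kallisto 0.46.2 and DESeq2 1.40.2 on GRCm38, with no roles stated; index and strand settings were not given in the sources used here. The authors' TPM is corrected for effective transcript length and scaled per library.

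Transcripts were matched by versioned identifier to GENCODE vM21 (116816 of 118489, 98.6%), and values were summed per gene and counts rounded. A second annotated Ddit3 gene, at 0 throughout, was left out. Genes passed filterByExpr (minimum count 10), TMM scaling and a two-sided quasi-likelihood test in edgeR, with treatment as the factor and Benjamini-Hochberg adjustment over 13451 genes. The biological coefficient of variation was 9.17%. The procedure was tested on simulated data. Alternatives are given in the closing section. Total estimated counts set the precision; intervals reflect the spread between libraries.

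The members and gene lists were chosen with earlier results of these data known. Named genes were all members, in each list the called gene of smallest p in each direction and the 2 of smallest p in either direction, and the 3 genes most like each called member; not all are described. Klf6, Fos, Egr1, Asns, Yars, Map1lc3b, Mafk, Fosl2, Slc2a1 and Fkbp5 were chosen after their values were seen. The extraction protocol mentions lung tissue, though every sample is labelled as the line. Computations used edgeR 4.0.16, DESeq2 1.42.0 and limma 3.58.1 under R 4.3.3, and pandas 2.3.3 and matplotlib 3.10.9 under Python 3.11.15.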

Additional observations from a re-analysis of the deposited data

How the results depend on the processing

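Over all genes, 581 were called higher and 958 lower. The count called higher was 1052 (1145 lower) with no filter on low counts, 224 (774 lower) with limma on log2(TPM + 1) and 220 (765 lower) on log2(TPM + 0.1), and a test against a 1.5-fold change called 68 higher and 93 lower. Removing each library's GC and length trend gave 700 higher and 712 lower. Leaving out 1 library gave 281 to 967 higher and 554 to 981 lower, with 967 and 974 without PBS library 1.

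Of the members, 3 were called higher and 1 lower. The number called higher was 1 with an offset for effective length, 0 with limma on either TPM scale, 0 in the test against a 1.5-fold change and 5 with the GC and length trend removed, which added Atf5 (adjusted p = 0.0234) and Cebpb (0.0150). With no filter on low counts it was 4, with Atf5 (0.00381) and Cebpb (0.00118) called and Sesn2 not. The number called lower was 0 with limma-voom (Atf3, adjusted p = 0.0506) and 0 in the 1.5-fold test. That test could call no member in either direction, as every edgeR change was below 1.5-fold. With 1 library left out, 0 to 3 were higher and 0 to 1 lower. Over all tested genes same-numbered libraries did not deviate together (correlations -0.124, 0.00608 and -0.0594), so the numbers were not taken as pairs. Atf3, Fos, Dusp1, Ier2 and Egr1 were nonetheless each highest in library 1 of both groups. A replicate block gave 331 genes higher and 691 lower, and 1 member higher and 1 lower.

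Directions turned only for members that were not called. With the length offset Ppp1r15a was at a log2 change of 0.067. With limma on log2(TPM + 1) Ppp1r15a was at 0.021 and Atf4 at -0.058, and on log2(TPM + 0.1) they were at 0.023 and -0.058. The median log2 change over all genes in these fits was -0.061 and -0.065, beside 0.006 in the main test. With 1 library left out, Atf4 ran from -0.0080 to 0.076, Ddit3 from -0.034 to 0.24, Ddit4 from -0.022 to 0.32 and Ppp1r15a from -0.23 to 0.034; the sign turned without PBS library 3 for Atf4 and Ddit3, without PBS library 1 or 2 for Ddit4 and without PBS library 1 for Ppp1r15a. The cause of these shifts was not tested. Of 18 alternatives, 13 called Trib3, 13 Atf3, 8 Chac1, 5 Sesn2, 4 Cebpb and 3 Atf5. The 1.5-fold test, which could call no member, is among the 18.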
